A study of Caenorhabditis elegans with 30 samples.

Results

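The 6 vitellogenin genes of *C. elegans*, *vit-1* to *vit-6*, were taken by name from a count table of 46934 genes, and all 6 were found and had reads in every library. The reads came from 3′ mRNA sequencing (QuantSeq, which reads each transcript near its 3′ end) of 30 libraries in 15 groups of 2. All worms were hermaphrodites that carried *glp-1(e2141)*, a temperature-sensitive mutation that leaves worms raised at 25 °C without a germline, and wild-type *fln-2*. Controls carried *glp-1(e2141)* alone. The *set-26(-)* mutants were *glp-1(e2141);set-26(tm2467)* and the *hcf-1(-)* mutants *glp-1(e2141);hcf-1(pk924)*, each compared as 1 strain. Embryos were grown on bacteria with the empty vector L4440 (EV) until young adulthood and sampled at day 1, and the rest of each population was divided between EV and *hda-1* RNAi bacteria and sampled at days 3 and 12. SET-26 and HCF-1 are chromatin factors, HDA-1 is a histone deacetylase, and the design asks how transcript levels differ between mutants and controls, with age and on *hda-1* RNAi. The study calls its RNA-seq replicates biological, but the labels do not say how the libraries of a group were separated, so p-values measure the spread between these samples.

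Vitellogenins are the yolk proteins. In the adult hermaphrodite the intestine makes them, secretes them into the body cavity, and developing oocytes take them up through the receptor RME-2. *vit-1* to *vit-5* encode the large yolk proteins known as YP170, and *vit-6* encodes the precursor that is cut into the smaller YP115 and YP88. Their transcription starts as worms reach adulthood and depends on the homeodomain factors UNC-62 and CEH-60 and the gut GATA factor ELT-2. Germline-less worms have no oocytes to receive the yolk.

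On genome build WBcel235, 5 of the 6 genes lie on chromosome X. *vit-1* (WBGene00006925) spans positions 7727889 to 7733168 of X on the plus strand with 5 exons, and *vit-2* (WBGene00006926) spans 5101042 to 5106169 of X on the plus strand with 5 exons. *vit-3* (WBGene00006927, 3567355 to 3572549 of X) and *vit-4* (WBGene00006928, 3558769 to 3563965 of X) are neighbours on the minus strand with 6 exons each, 3389 bases apart by the gap between their ends. *vit-5* (WBGene00006929) spans 3403471 to 3408603 of X on the plus strand with 6 exons. *vit-6* (WBGene00006930) is the member outside X, at 8261157 to 8266459 of chromosome IV on the plus strand, with 5 exons and 2 annotated transcripts. The members are a family of similar genes, and the authors counted only reads that mapped to 1 place, so reads shared between members were dropped. How many were lost is not known, so the counts of a member are uncertain and levels are compared between samples, not between members.

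Library totals ran from 6045498 to 17748121 reads, and the intestine was well covered, with 8 of 8 intestine markers above 3 reads in each group. Their summed level was 4446 to 6272 CPM (counts of a gene scaled to library size, with TMM factors over all 30 libraries) at day 1, 3309 to 5728 at day 3 and 1128 to 2211 at day 12. Germ cell and oocyte markers summed to 45.5 CPM at most. Of these, *rme-2* had 0 to 47 reads, *oma-2* 0 to 119 and *puf-5* 7 to 143. The germ granule genes *pgl-1* and *glh-1* had 0 to 10 and 20 to 278. At day 12 on EV the sum was 32.6 to 45.03 CPM in controls, 16.02 to 19.44 in *set-26(-)* and 13.95 to 16.82 in *hcf-1(-)*. On *hda-1* RNAi at day 12 *set-26(-)* overlapped the controls and *hcf-1(-)* lay below them. The sperm markers *spe-9* and *fer-1* never passed 12 reads. *hcf-1* reads were lower in libraries labelled *hcf-1(-)*, by 2.17 on the log2 scale at day 1 (log2 fold change -2.17, SE 0.40, adjusted p = 0.0123, edgeR). By contrast, *set-26* reads were not lower in libraries labelled *set-26(-)* (12.1 and 15.1 CPM against 12.6 and 10.8 at day 1). The *set-26* reads therefore give no check of that label, and the reason was not tested. *hda-1* reads were higher in libraries labelled *hda-1* RNAi, at 252 to 1914 CPM against 20.5 to 117 on EV, so these reads give no measure of the knockdown. At day 1 hypodermal collagen genes differed with genotype: *rol-6* had 522 and 320 reads in *hcf-1(-)*, 35 and 8 in *set-26(-)* and 0 and 6 in controls, and *dpy-7* had 124 and 60 in *hcf-1(-)* against at most 4 in the other 4 libraries of day 1. *col-19*, a collagen of the adult cuticle that took nearly all the reads of the hypodermis list, was at 7161 and 5278 CPM in *hcf-1(-)*, below controls (11536 and 7823) and *set-26(-)* (12124 and 8717) without overlap. The 3 genes of the list together summed to 5323 to 7251 CPM in *hcf-1(-)*, 8718 to 12130 in *set-26(-)* and 7823 to 11540 in controls. At days 3 and 12 *rol-6* had at most 12 reads and *dpy-7* at most 4 in any library.

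The vitellogenin genes took a large share of the control libraries in early adulthood and a small one at day 12. Reads of the 6 genes made up 7.84% and 8.86% of the control libraries at day 1, 9.34% and 10.15% at day 3 on EV, and 1.34% and 0.49% at day 12 on EV. In controls of days 1 and 3 kept on EV, no gene had more reads than *vit-6*. In *set-26(-)* the share was 1.24% and 2.93% at day 1, 3.56% and 4.23% at day 3 and 1.13% and 0.57% at day 12 on EV. In *hcf-1(-)* it was 0.59% and 0.76% at day 1, 2.44% and 3.63% at day 3 and 0.40% and 0.19% at day 12. The control share was therefore above both mutants at days 1 and 3 in every library, and the groups overlapped at day 12 for *set-26(-)*.

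**Figure D1:**
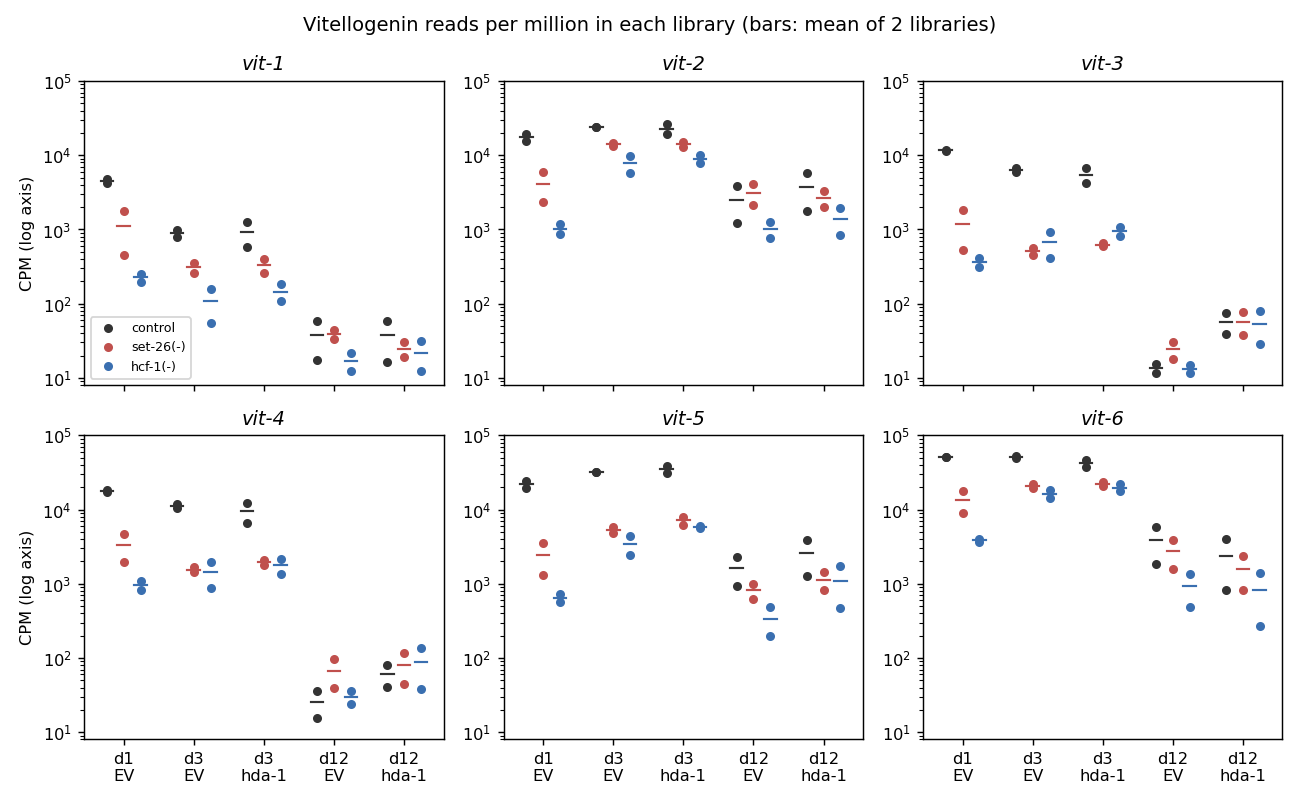
CPM of each member (log axis) in each of the 30 libraries, by day and diet along the horizontal axis (d1, d3 and d12 are days 1, 3 and 12; hda-1 is *hda-1* RNAi) and by genotype in colour. Points are libraries and short bars are the mean of the 2 libraries of a group; *vit-3* and *vit-4* do not exceed 138 CPM in any library of day 12, while *vit-2* does not go below 768 CPM in any library.

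The order of the 15 groups differed between members. For *vit-1*, the control group of day 1 was highest at 4180 and 4816 CPM, above *set-26(-)* at day 1 (458 and 1783 CPM), and all 6 groups of day 12 came last, at 12.3 to 58.6 CPM. Neighbouring groups of *vit-1* overlapped throughout day 12. *vit-3* and *vit-4* had the same group on top: *vit-3* stood at 11570 and 11740 CPM and *vit-4* at 17330 and 18260 CPM in controls of day 1, with controls of day 3 next and not overlapping them. *vit-2* was highest in controls of day 3 on EV (23940 and 24370 CPM), which overlapped controls on *hda-1* RNAi (19480 and 26300 CPM) and stood above controls of day 1 (19340 and 15720 CPM). *vit-5* had its 2 highest groups in controls of day 3 as well, on *hda-1* RNAi (31580 and 39120 CPM) and on EV (31660 and 32080 CPM). *vit-6* was level between days 1 and 3 in controls on EV (50780 and 51750, then 49140 and 53410 CPM), and these groups overlapped. The lowest group was *hcf-1(-)* at day 12 for *vit-1*, *vit-3*, *vit-5* (all on EV) and *vit-6* (on *hda-1* RNAi), controls at day 12 on EV for *vit-4* and *hcf-1(-)* at day 1 for *vit-2*. Of these lowest groups, that of *vit-5* did not overlap the group above it, and the others did.

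The 2 libraries of a group differed by a median of 1.29-fold at day 1 and 1.25-fold at day 3, but by 2.41-fold at day 12. At day 12 replicate 1 had the higher CPM in 36 of 36 pairs of member and group, and at day 3 replicate 2 did in 36 of 36. These pairs are correlated members measured in the same libraries, so they are not independent. The share of all genes with this order was not counted, so the order cannot be ascribed to the vitellogenin genes in particular. The widest gap was 5.12-fold, for *vit-6* in *hcf-1(-)* at day 12 on *hda-1* RNAi (1398 and 273 CPM). At day 1 the widest gap was 3.90-fold, for *vit-1* in *set-26(-)*.

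At day 1, members were lower in both mutants than in controls, and further below them in *hcf-1(-)*. *vit-5* stood at 19540 and 24370 CPM in controls, at 1332 and 3558 in *set-26(-)* and at 561 and 721 in *hcf-1(-)*. *vit-3* stood at 11570 and 11740 CPM in controls, at 524 and 1851 in *set-26(-)* and at 311 and 412 in *hcf-1(-)*. *vit-6* stood at 50780 and 51750 CPM in controls, at 8974 and 17970 in *set-26(-)* and at 3643 and 4022 in *hcf-1(-)*. For these 3 genes no library of one genotype reached the range of another, with controls on top and *hcf-1(-)* at the bottom, but the difference between the mutants was not tested.

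In the edgeR quasi-likelihood fit with Benjamini-Hochberg adjustment over 12369 genes (adjusted p under 0.05 for a call), 5 of the 6 members were called lower in *set-26(-)* at day 1, where 4.19% of all genes tested were called lower. *vit-3* and *vit-5* had the largest log2 fold changes, -3.30 (SE 0.54, adjusted p = 0.0103) and -3.17 (SE 0.46, adjusted p = 0.0069). *vit-4*, *vit-2* and *vit-6* had -2.43, -2.08 and -1.93 (SE 0.37 to 0.44, adjusted p 0.0113 to 0.0266). *vit-1* had -2.01 (SE 0.53, adjusted p = 0.0561) and was not called, although DESeq2 called it (adjusted p = 0.0014) and edgeR did without *set-26(-)* replicate 2 (adjusted p = 0.00445), for 6 of 6 in each. The count was lower without *set-26(-)* replicate 1 and without either *hcf-1(-)* library. The *hcf-1(-)* libraries enter this fit through the spread, the TMM factors and the filter on low counts.

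In *hcf-1(-)* at day 1, 6 of 6 members were lower, beside 5.84% of all genes tested. Their log2 fold changes ran from -3.70 (SE 0.40, adjusted p = 0.0015) for *vit-6* to -5.06 (SE 0.51, adjusted p = 0.00119) for *vit-5*, with *vit-3* at -4.97 (SE 0.58), *vit-1* at -4.27 (SE 0.59), *vit-4* at -4.17 (SE 0.44) and *vit-2* at -4.07 (SE 0.47). The *hcf-1(-)* libraries of day 1 are also those with the most *rol-6* and *dpy-7* reads and the lowest *col-19* level, and the part of these in the difference was not tested. The summed level of the 8 intestine markers was also lower in the mutants at day 1, at 4522 to 5370 CPM in *set-26(-)* and 4446 to 5592 in *hcf-1(-)* against 5598 to 6272 in controls, without overlap. Of the 8, 1 was called lower in each mutant, the aspartyl protease gene *asp-1* in *set-26(-)* (-0.94, SE 0.24, adjusted p = 0.0474) and the proton pump subunit gene *vha-6* in *hcf-1(-)* (-0.88, SE 0.23, adjusted p = 0.0398), both named after their values were seen. The median log2 fold change of the 8 was 0.26 in *set-26(-)* and 0.02 in *hcf-1(-)*, and their part in the vitellogenin difference was not tested.

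At day 3 on EV, members were still lower in both mutants. *vit-3* stood at 5917 and 6631 CPM in controls, at 458 and 556 in *set-26(-)* and at 417 and 935 in *hcf-1(-)*. *vit-5* stood at 31660 and 32080 CPM in controls, at 4773 and 5874 in *set-26(-)* and at 2453 and 4394 in *hcf-1(-)*. *vit-2* stood at 23940 and 24370 CPM in controls, at 13410 and 14540 in *set-26(-)* and at 5776 and 9739 in *hcf-1(-)*. Controls were highest in all 3 genes without overlap. The mutants overlapped each other for *vit-3* and not for the other two.

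All 6 members were called lower in *set-26(-)* at day 3 on EV, beside 6.04% of genes tested, and 6 of 6 in *hcf-1(-)*, beside 7.29%. DESeq2 called 5 of 6 in *set-26(-)* and 6 of 6 in *hcf-1(-)*. The edgeR count in *set-26(-)* was not always reached when a library was left out. In *set-26(-)* the members fell into a wide range, from *vit-3* at -3.61 (SE 0.28, adjusted p = 7.49e-08), *vit-4* at -2.82 (SE 0.27) and *vit-5* at -2.57 (SE 0.23) to *vit-1* at -1.51 (SE 0.32), *vit-6* at -1.29 (SE 0.17) and *vit-2* at -0.77 (SE 0.20, adjusted p = 0.0145). In *hcf-1(-)* the log2 fold changes were -3.21 (SE 0.23) for *vit-5*, -3.21 (SE 0.28) for *vit-3*, -3.04 (SE 0.33) for *vit-1* and -2.95 (SE 0.28) for *vit-4*, against -1.65 (SE 0.18) for *vit-6* and -1.63 (SE 0.21) for *vit-2*. These calls stand beside *rol-6* and *dpy-7* counts of 4 or fewer in every library on EV at day 3, and beside intestine markers at 3569 to 3691 CPM in controls, 4368 to 5166 in *set-26(-)* and 3309 to 4209 in *hcf-1(-)*.

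On *hda-1* RNAi at day 3, 6 of 6 members were called lower in *set-26(-)*, beside 3.68% of genes tested, and 6 of 6 in *hcf-1(-)*, beside 5.54%. DESeq2 called 5 of 6 in *set-26(-)* and 6 of 6 in *hcf-1(-)* here. In *set-26(-)* the log2 fold changes ran from -0.69 (SE 0.18, adjusted p = 0.0302) for *vit-2* to -3.12 (SE 0.23, adjusted p = 5.25e-06) for *vit-3*. In *hcf-1(-)* they ran from -1.09 (SE 0.17, adjusted p = 0.00146) for *vit-6* to -2.65 (SE 0.36, adjusted p = 0.00067) for *vit-1*. Without control replicate 2, the library with the most vitellogenin reads of this day and diet, 3 of 6 were called in *set-26(-)*. The intestine markers summed to 3939 to 4256 CPM in controls, 4547 to 5728 in *set-26(-)* and 3314 to 3770 in *hcf-1(-)* here, and their part was not tested.

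At day 12 on EV, 4 of the 6 members in each mutant overlapped the controls, and the share of all genes that did was not counted. *vit-6* had 5831 and 1869 CPM in controls on EV, 3932 and 1568 in *set-26(-)* and 1359 and 483 in *hcf-1(-)*. *vit-2* had 3832 and 1217 CPM in controls, 4050 and 2137 in *set-26(-)* and 1274 and 768 in *hcf-1(-)*. *vit-4* had 35.5 and 15.7 CPM in controls, 95.5 and 39.7 in *set-26(-)* and 36.4 and 23.8 in *hcf-1(-)*. The 2 libraries of a group were often further apart than the groups. Replicate by replicate, a pairing that the labels do not give, *hcf-1(-)* lay below controls for *vit-2* and *vit-6* in both. *vit-4* and *vit-3* were the members for which *set-26(-)* lay above the controls without overlap. For *vit-5* and *vit-6*, *hcf-1(-)* lay below the controls without overlap.

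In *set-26(-)* at day 12 on EV, edgeR called 0 of 6 members, beside 4.67% of genes tested, with 2 members at an unadjusted p under 0.05 and 1 called by DESeq2. *vit-4* had a log2 fold change of 1.38 (SE 0.46, adjusted p = 0.128), *vit-3* of 0.84 (SE 0.30, adjusted p = 0.158) and *vit-6* of -0.49 (SE 0.61, adjusted p = 0.705). The edgeR count was 1 without control replicate 1. In *hcf-1(-)*, 1 of 6 was called, beside 5.81%: *vit-5* at -2.26 (SE 0.50, adjusted p = 0.0322), from 2318 and 924 CPM in controls to 480 and 198. *vit-6* had -2.07 (SE 0.63, adjusted p = 0.0892). The count depended on single libraries: 0 of 6 were called without control replicate 1 or without any of the *set-26(-)* and *hcf-1(-)* libraries, and 4 of 6 without control replicate 2. On *hda-1* RNAi at day 12, 0 of 6 were called in *set-26(-)*, beside 3.25% of genes, with 0 at an unadjusted p under 0.05 and 0 by DESeq2. In *hcf-1(-)*, 0 of 6 were called, beside 4.31%, with 1 at an unadjusted p under 0.05 and 0 by DESeq2. With the replicate number as a block, a pairing that no label gives, *vit-2*, *vit-5* and *vit-6* were called lower in *hcf-1(-)* on each diet. These 3 of 6 stood beside 7.89% of genes on EV and 14.3% on *hda-1* RNAi. In *set-26(-)* the block called *vit-4* higher and *vit-5* lower on EV, beside 6.09%. On *hda-1* RNAi it called *vit-5* lower there, beside 13.9%.

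**Figure D2:**
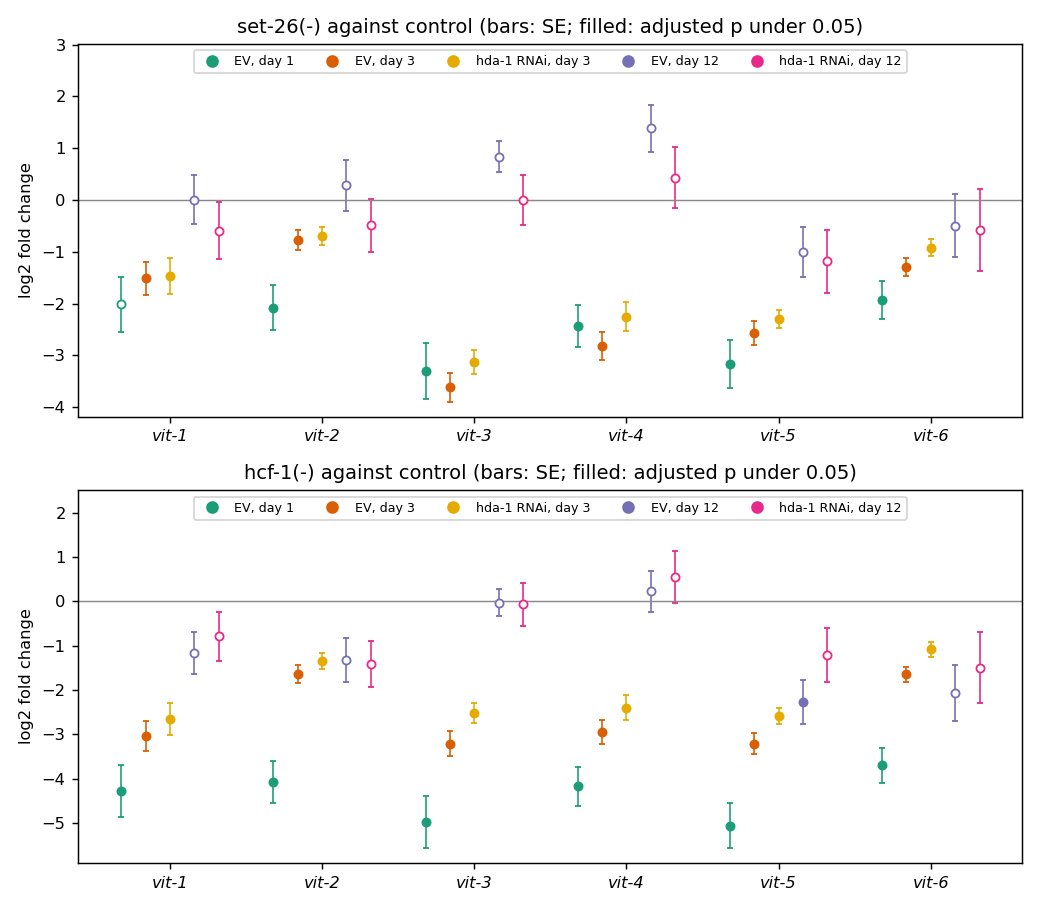
Log2 fold change of each member in *set-26(-)* (top) and *hcf-1(-)* (bottom) against controls of the same day and diet. The edgeR fits took 6 libraries each, without a replicate block. Bars are standard errors, filled points have an adjusted p under 0.05, and the open points lie mostly at day 12; *vit-5* in *hcf-1(-)* on EV is the filled point of day 12, at -2.26.

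Between days 1 and 3 on EV the members moved in different directions. In controls *vit-1* went from 4180 and 4816 to 779 and 998 CPM, and *vit-3* from 11570 and 11740 to 5917 and 6631 CPM. *vit-5* went from 19540 and 24370 to 31660 and 32080 CPM. The ages did not overlap for any of these 3. edgeR called 2 of 6 members, both lower, beside 9.99% of genes called in either direction: *vit-1* at -2.33 (SE 0.22, adjusted p = 0.005) and *vit-3* at -0.89 (SE 0.18, adjusted p = 0.0302). *vit-4* had -0.68 (SE 0.18, adjusted p = 0.0672), *vit-2* 0.47 (SE 0.19, adjusted p = 0.194), *vit-5* 0.54 (SE 0.19, adjusted p = 0.137) and *vit-6* 0.00 (SE 0.17, adjusted p = 0.989). The count was 0 without either library of day 3 and 4 without either library of day 1.

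In *set-26(-)*, *vit-2* went from 2339 and 5983 CPM at day 1 to 13410 and 14540 at day 3, and *vit-1* from 458 and 1783 to 262 and 353 CPM, with no overlap between the ages for either. edgeR called 3 of 6 members, beside 29.7% of genes: *vit-2* higher at 1.76 (SE 0.41, adjusted p = 0.00721), and *vit-1* and *vit-4* lower at -1.85 (SE 0.48, adjusted p = 0.0126) and -1.08 (SE 0.36, adjusted p = 0.0407). With the replicate number as a block, 6 of 6 were called, beside 33.9% of genes, with *vit-5* at 1.29 (adjusted p = 0.000137), *vit-6* at 0.71 (adjusted p = 0.00952) and *vit-3* at -0.96 (adjusted p = 0.00708) added. The block leaves 1 residual degree of freedom among 4 libraries, and in controls it called 2 of 6, beside 6.79% of genes.

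In *hcf-1(-)*, *vit-2* went from 869 and 1169 to 5776 and 9739 CPM, *vit-5* from 561 and 721 to 2453 and 4394 CPM, and *vit-6* from 3643 and 4022 to 14170 and 18440 CPM. Day 3 was above day 1 in all 3 without overlap. edgeR called 3 of 6 members, all higher, beside 27.2% of genes: *vit-2* at 2.92 (SE 0.31, adjusted p = 0.000398), *vit-5* at 2.41 (SE 0.31, adjusted p = 0.000946) and *vit-6* at 2.08 (SE 0.24, adjusted p = 0.000546). *vit-1* went the other way, from 198 and 255 to 55.5 and 160 CPM (-1.07, SE 0.42, adjusted p = 0.102). With the replicate number as a block, 5 of 6 were called, beside 37.9% of genes, with *vit-3* higher at 0.80 (adjusted p = 0.00436) and *vit-1* lower at -1.23 (adjusted p = 0.00241) added. In these libraries *rol-6* and *dpy-7* had 4 reads or fewer at day 3, and *col-19* was at 227 and 213 CPM, against 7161 and 5278 at day 1. *col-19* was also far lower at day 3 than at day 1 in controls (321 and 258 CPM) and *set-26(-)* (511 and 398 CPM), and the part of these collagens in the rise was not tested.

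Whether this step differed between genotypes was tested as an interaction over the 18 EV libraries. edgeR called 0 of 6 members for *set-26(-)*, beside 0.735% of genes, with 0 at an unadjusted p under 0.05 and 0 by DESeq2. It called 0 of 6 for *hcf-1(-)*, beside 0.584%, with 4 at an unadjusted p under 0.05, 1 by DESeq2 and 6 by edgeR without the filter on low counts. The *hcf-1(-)* estimates were positive for all 6 members, from 1.25 (SE 0.67) for *vit-4* to 2.46 (SE 0.70, adjusted p = 0.118) for *vit-2*.

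From day 3 to day 12 on EV, every member fell in every genotype, and *vit-3* and *vit-4* fell furthest. In controls *vit-3* went from 5917 and 6631 to 15.3 and 11.7 CPM and *vit-4* from 10370 and 11800 to 35.5 and 15.7 CPM. In *set-26(-)* *vit-3* went from 458 and 556 to 30.7 and 18.1 CPM, and in *hcf-1(-)* from 417 and 935 to 15.1 and 11.6 CPM. *vit-3* was far higher in controls than in the mutants at day 3, and at day 12 it did not exceed 30.7 CPM in any EV library.

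All 6 members were called lower in controls, beside 16.2% of genes called lower. The log2 fold changes were -8.88 (SE 0.38, adjusted p = 1.07e-05) for *vit-3* and -8.78 (SE 0.51, adjusted p = 2.39e-05) for *vit-4*, and -3.29 (SE 0.50) for *vit-2*, -3.77 (SE 0.51) for *vit-6*, -4.33 (SE 0.46) for *vit-5* and -4.58 (SE 0.54) for *vit-1*. In *set-26(-)*, 6 of 6 were called lower, beside 18.8% of genes, from -2.18 (SE 0.31) for *vit-2* to -4.53 (SE 0.35) for *vit-4*. In *hcf-1(-)*, 6 of 6 were called lower, beside 10.7% of genes, from -2.65 (SE 0.42) for *vit-1* to -5.65 (SE 0.38) for *vit-3*. The intestine markers also changed: of 8, 3 were called lower and 2 higher in controls, 4 lower and 1 higher in *set-26(-)*, and 4 lower in *hcf-1(-)*, with medians of -0.14, -0.47 and -0.66. In whole worms, fewer intestinal cells and less RNA per cell cannot be told apart.

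The size of the fall between days 3 and 12 differed between genotypes for *vit-3* and *vit-4*. Against controls, the interaction in *set-26(-)* was 4.48 (SE 0.67, adjusted p = 0.00173) for *vit-3* and 4.23 (SE 0.70, adjusted p = 0.00376) for *vit-4* on the log2 scale, a smaller fall in the mutant, and 2 of 6 members were called beside 2.49% of genes. In *hcf-1(-)* it was 3.21 (SE 0.66, adjusted p = 0.0163) for *vit-3* and 3.20 (SE 0.69, adjusted p = 0.0206) for *vit-4*, again 2 of 6, beside 2.16% of genes. The other 4 members had estimates from 0.83 to 1.60 in *set-26(-)* and from -0.40 to 1.90 in *hcf-1(-)*, with adjusted p of 0.326 or more. In *set-26(-)* 2 were called whichever library was left out, whereas in *hcf-1(-)* 1 was called without control replicate 1 of day 3, and 0 without control replicate 2 of day 3, control replicate 2 of day 12, or *hcf-1(-)* replicate 1 of either day. Both interactions use the same controls.

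**Figure D3:**
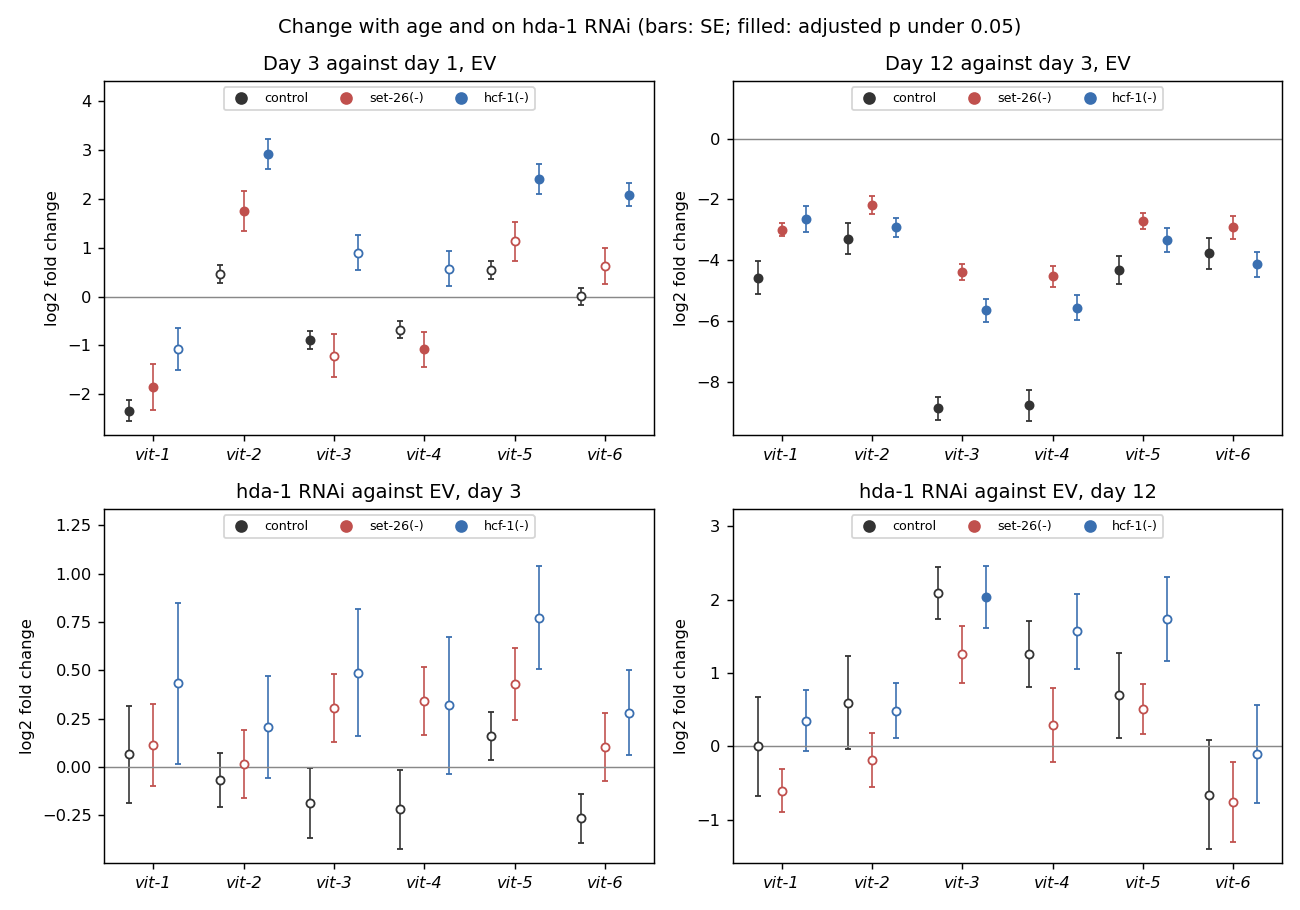
Log2 fold change of each member with age on EV (top) and on *hda-1* RNAi against EV (bottom), by genotype, from edgeR fits without a replicate block; each panel has its own vertical scale. Bars are standard errors and filled points have an adjusted p under 0.05; *vit-3* and *vit-4* in controls reach -8.88 and -8.78 between days 3 and 12, and *vit-3* in *hcf-1(-)* is the filled point on *hda-1* RNAi, at 2.04.

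After 2 days on *hda-1* RNAi, at day 3, edgeR called 0 of 6 members in controls, beside 0.0434% of genes, with 0 at an unadjusted p under 0.05 and 0 by DESeq2. It called 0 of 6 in *set-26(-)*, beside 0.099%, with 1 at an unadjusted p under 0.05 and 0 by DESeq2. It called 0 of 6 in *hcf-1(-)*, beside 0.0159%, with 1 at an unadjusted p under 0.05 and 0 by DESeq2. The gene with the largest estimate was *vit-5* in *hcf-1(-)*, at 2453 and 4394 CPM on EV against 5617 and 6062 with *hda-1* RNAi (0.77, SE 0.27, adjusted p = 1), where the diets did not overlap. The diets also did not overlap for *vit-3*, *vit-4* and *vit-5* in *set-26(-)*, all higher on *hda-1* RNAi, and for *vit-6* in controls, lower there. The share of all genes without overlap was not counted. With the replicate number as a block, *vit-5* (0.83, adjusted p = 0.0139) and *vit-1* (0.57, adjusted p = 0.0443) were called in *hcf-1(-)*, beside 1.15% of genes, and 3 of 6 were called without a block when *hcf-1(-)* replicate 2 on EV was left out. In controls the count was 1 without replicate 2 on *hda-1* RNAi.

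At day 12 the *vit-3* level on *hda-1* RNAi lay above that on EV in all 3 genotypes. It went from 15.3 and 11.7 to 74.4 and 39.5 CPM in controls, from 30.7 and 18.1 to 76.1 and 37.6 in *set-26(-)*, and from 15.1 and 11.6 to 79.2 and 28.7 in *hcf-1(-)*. Each RNAi library stood above each EV library of its genotype, and the level on *hda-1* RNAi stayed far below that of day 3. *vit-4* went from 35.5 and 15.7 to 79.7 and 40.9 CPM in controls and from 36.4 and 23.8 to 138 and 37.8 in *hcf-1(-)*, without overlap, and in *set-26(-)* its diets overlapped. *vit-6* went the other way, from 5831 and 1869 to 3962 and 831 CPM in controls, with overlap.

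Without a block, edgeR called 1 of 6 members in *hcf-1(-)* at day 12, beside 5.38% of genes: *vit-3* at 2.04 (SE 0.42, adjusted p = 0.0274), which DESeq2 did not call. It called 0 of 6 in controls, beside 0.988%, where *vit-3* had 2.09 (SE 0.35, adjusted p = 0.0518), 2 members had an unadjusted p under 0.05 and DESeq2 called 1. It called 0 of 6 in *set-26(-)*, beside 1.21%, where *vit-3* had 1.26 (SE 0.39, adjusted p = 0.168), 1 member had an unadjusted p under 0.05 and DESeq2 called 1. Leaving out 1 library gave a count of 1 in controls (without replicate 1 on EV), 1 in *set-26(-)* (without replicate 1 on EV), and in *hcf-1(-)* 2 (without replicate 1 of either diet) and 3 (without replicate 2 on *hda-1* RNAi).

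By the study's methods, each population was divided between EV and *hda-1* RNAi at day 1. That libraries with the same number came from the same population is inferred from the numbers. At day 12 replicate 1 lay above replicate 2 for the members in each diet, an order not counted over all genes. When the replicate number entered as a block, which leaves 1 residual degree of freedom among 4 libraries, 5 of 6 members were called in controls, beside 13% of genes, 4 of 6 in *set-26(-)*, beside 16.6%, and 5 of 6 in *hcf-1(-)*, beside 21.9%. The share of all genes called was also higher with the block than without it. *vit-3* was higher at 2.06 (adjusted p = 1.68e-17) in controls, 1.22 (adjusted p = 5.32e-05) in *set-26(-)* and 1.95 (adjusted p = 3.42e-12) in *hcf-1(-)*, and *vit-5* was higher at 0.63 (adjusted p = 0.000499), 0.48 (adjusted p = 0.0418) and 1.59 (adjusted p = 7.53e-15). *vit-6* was lower at -0.84 (adjusted p = 2.42e-07), -0.80 (adjusted p = 0.00154) and -0.35 (adjusted p = 0.0272). *vit-4* was called higher in controls (1.29, adjusted p = 8.61e-08) and *hcf-1(-)* (1.39, adjusted p = 7.27e-09) and *vit-2* in controls (0.59, adjusted p = 0.000782) and *hcf-1(-)* (0.41, adjusted p = 0.00155), and *vit-1* was called lower in *set-26(-)* (-0.63, adjusted p = 0.0198). The intestine markers had medians of -0.54, -0.10 and -0.18 over the same comparisons without a block, and their part was not tested.

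The interaction of genotype and *hda-1* RNAi at day 12 was called for 0 of 6 members and 0% of 14836 genes for *set-26(-)*, and likewise for *hcf-1(-)*, with 0 members at an unadjusted p under 0.05 and 0 by DESeq2 in each. The estimates for *vit-3* were -0.85 (SE 0.68) and -0.05 (SE 0.68).

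The share of each member in the vitellogenin reads of its library moved along with these changes, and unlike CPM it does not depend on how libraries are scaled. *vit-1*, *vit-3* and *vit-4* held less of the pool at each later day in controls: *vit-4* held 14.1% and 14.4% of the vitellogenin reads in controls at day 1, 8.52% and 9.12% at day 3 and 0.293% and 0.387% at day 12 on EV. *vit-2* held 15.8% and 12.4%, then 19.7% and 18.8%, then 31.7% and 30% in the same groups. In *set-26(-)* the *vit-2* share was 15% and 16.7%, then 33.8% and 32.2%, then 44.3% and 48.3%. In *hcf-1(-)* it was 13.5% and 15.3%, then 24.3% and 27.3%, then 40% and 51.3%. The *vit-2* share on EV was thus larger at each later day, without overlap, in every genotype.

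*vit-5* and *vit-6* shares differed between genotypes and diets. *vit-5* held 15.9% and 19.2% of the vitellogenin reads in controls at day 1, against 8.53% and 9.94% in *set-26(-)* and 8.74% and 9.41% in *hcf-1(-)*. *vit-6* held 41.4% and 40.9% in controls at day 1, against 57.5% and 50.2% in *set-26(-)* and 56.8% and 52.5% in *hcf-1(-)*. Both mutants lay on the same side of the controls in every library of day 1. At day 12 *vit-6* held 48.2% and 46.1% in controls on EV against 28.8% and 20.8% on *hda-1* RNAi. The *vit-6* share also went from 43% and 35.4% to 32.2% and 21.8% in *set-26(-)*, and from 42.7% and 32.3% to 26.2% and 16.5% in *hcf-1(-)*. The diets did not overlap within any genotype, and these shares were not tested.

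**Figure D4:**
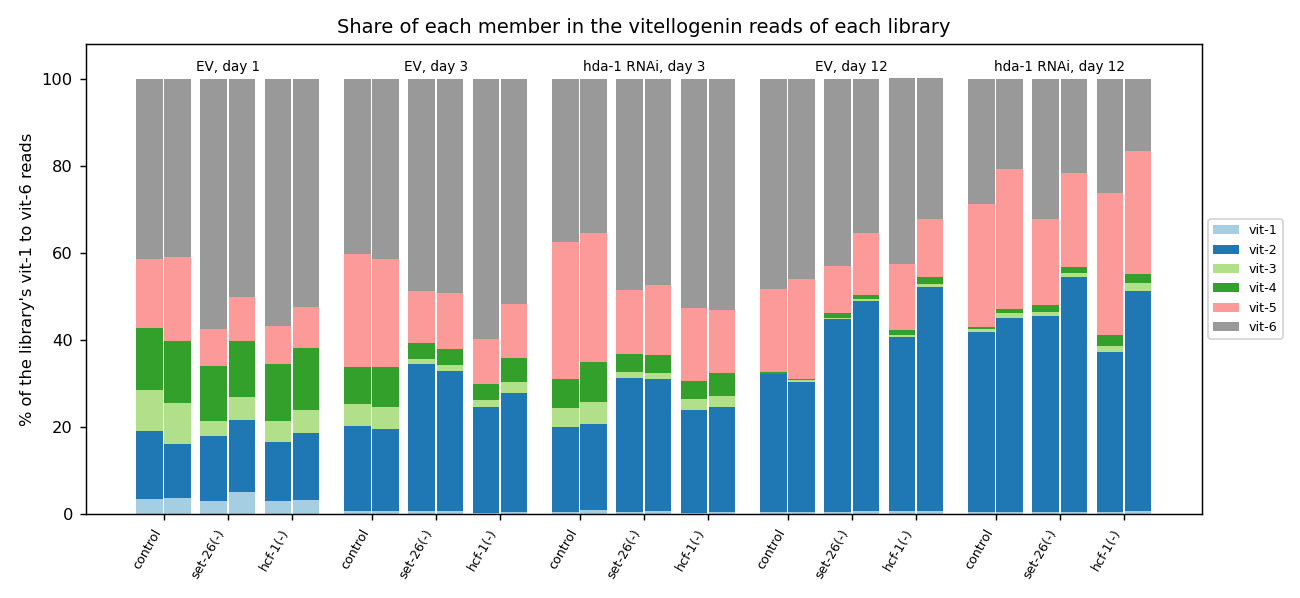
Share of each member (percent, stacked to 100) in the *vit-1* to *vit-6* reads of each of the 30 libraries, with the 2 libraries of a group side by side. *vit-3* and *vit-4* hold smaller shares at day 12 than at day 3 in every genotype and diet, and the *vit-6* share in controls falls from 48.2% and 46.1% on EV to 28.8% and 20.8% on *hda-1* RNAi at day 12.

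Few known regulators of the yolk genes were called, and whether these counts depart from the share of all genes was not tested. Of 11 regulators (*unc-62*, *ceh-60*, *pqm-1*, *elt-2*, *elt-7*, *lin-29*, *mab-3*, *daf-16*, *daf-2*, *rict-1* and *sgk-1*), 10 were tested at day 1, and 1 was called lower in each mutant. Of all genes tested, 4.19% were called lower in *set-26(-)* and 5.84% in *hcf-1(-)*. The regulator called was *pqm-1*, a zinc finger transcription factor, at 112 and 73.5 CPM in controls, 42.1 and 40.6 in *set-26(-)* and 35.7 and 44.4 in *hcf-1(-)*. Controls stood above both mutants without overlap, with log2 fold changes of -1.16 (SE 0.26, adjusted p = 0.0347) and -1.17 (SE 0.26, adjusted p = 0.026).

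At day 3 on EV *pqm-1* was at 144 and 146 CPM in controls, 136 and 130 in *set-26(-)* and 126 and 125 in *hcf-1(-)*. It rose from day 1 by 1.69 (SE 0.20, adjusted p = 0.000113) in *set-26(-)* and by 1.64 (SE 0.19, adjusted p = 0.000629) in *hcf-1(-)* on the log2 scale. In each, 1 of 10 tested regulators was called higher, beside 16.6% of genes called higher in *set-26(-)* and 14.4% in *hcf-1(-)*. *pqm-1* was not among the genes that fell with the yolk genes to day 12: it stood at 206 and 213 CPM in controls on EV. From day 3 to day 12, 0 of the regulators were called in any genotype. The share of all genes called was 28.6% in controls, 34.4% in *set-26(-)* and 17.4% in *hcf-1(-)*. On *hda-1* RNAi at day 12 *pqm-1* was lower in *hcf-1(-)*, at 86.0 and 84.6 against 157 and 139 CPM (-0.76, SE 0.17, adjusted p = 0.036). *ceh-60*, the PBX-type activator of yolk genes, was called in 1 comparison, lower in *hcf-1(-)* at day 3 on *hda-1* RNAi, at 6.55 and 9.44 against 15.3 and 20.4 CPM (-1.15, SE 0.31, adjusted p = 0.0327). The median log2 fold change of the regulators in the 10 comparisons of mutants with controls ran from -0.35 to 0.02, against -0.02 to 0.05 for all genes tested.

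Of 7 genes of yolk uptake and lipid transfer (*rme-1*, *rme-2*, *rme-4*, *rme-6*, *rme-8*, *rab-35* and *dsc-4*), none was called in either mutant at day 1 or day 12. Of all genes tested, 8.64% (*set-26(-)*) and 13.6% (*hcf-1(-)*) were called at day 1 and 3.25% to 5.81% at day 12. In so short a list, none called therefore says little about these genes. *dsc-4*, the counterpart of the microsomal triglyceride transfer protein that loads lipid onto secreted lipoproteins, changed with age. In controls it went from 397 and 412 CPM at day 1 to 213 and 210 at day 3 and 94.3 and 47.1 at day 12, a fall at each step without overlap (-0.93, SE 0.18, adjusted p = 0.0269, then -1.61, SE 0.33, adjusted p = 0.00716). From day 3 to day 12 it also fell in *set-26(-)* (-1.73, SE 0.19, adjusted p = 4.99e-06) and *hcf-1(-)* (-0.92, SE 0.23, adjusted p = 0.0157). At day 3 on EV *dsc-4* was higher in *set-26(-)*, at 298 and 319 CPM against 213 and 210 in controls (0.56, SE 0.17, adjusted p = 0.0378), opposite in sign to the vitellogenin genes there.

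*rme-2*, the yolk receptor of oocytes, fell from day 1 to day 3 in *set-26(-)* (45 and 18 reads, then 2 and 0, -5.27, SE 0.94, adjusted p = 0.00158) and in *hcf-1(-)* (47 and 21 reads, then 9 and 4, -2.60, SE 0.70, adjusted p = 0.0265). These are counts near the floor of a library without a germline, and controls had 10 and 12 reads at day 1. The endocytosis genes *rme-4* and *rme-1* were called in 1 comparison each, *rme-4* higher in *hcf-1(-)* from day 1 to day 3 (0.83, SE 0.26, adjusted p = 0.0471) and *rme-1* higher in *set-26(-)* from day 3 to day 12 (0.65, SE 0.21, adjusted p = 0.0267).

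Across the 30 libraries, the members fell into patterns that followed the age course. Pearson's r of log2 CPM was 0.988 between the neighbours *vit-3* and *vit-4*, 0.952 between *vit-2* and *vit-5* and 0.943 between *vit-1* and *vit-4*. The lowest value was 0.752, between *vit-1* and *vit-2*. These are descriptions over libraries that share their groups and, for reads of similar members, an uncertain assignment.

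Of 9065 genes with a mean of 50 reads or more per library, *T10B5.7* followed the summed reads of *vit-1* to *vit-5* most closely (r = 0.973 over 30 libraries), followed by *Y40H7A.10* (0.953), the sodium channel family gene *del-6* (0.944), *ZK1290.5* (0.935) and the saposin-like gene *spp-5* (0.934). *vit-6* was followed most closely by *B0035.13* (0.951), the lipase-like gene *lipl-5* (0.949) and *T10B5.7* (0.945). The libraries behind each r are the same 15 groups, and the values over group means were 0.946 to 0.98.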

How the data were processed

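The authors trimmed reads with Trim Galore (0.6.5), aligned them to ce11/WBcel235 with STAR (2.7.9a), kept reads mapping to 1 place with at most 2 mismatches, and deposited raw stranded counts per gene; the annotation release is not given in the sources used here. Of 46934 gene IDs, 46924 were in the Ensembl annotation of WBcel235, which gave positions, and 44113 had a symbol.

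Counts were fitted with edgeR 4.0.16 (R 4.3.3; quasi-likelihood F test, TMM factors) on genes with more than 10 reads in at least 2 libraries of the fit. Adjustment was by Benjamini-Hochberg over all genes tested, with 0.05 as the threshold, and the SE is the size of the log2 fold change divided by the square root of F. Fits of mutants against controls took the 6 libraries of a day and diet, those of *hda-1* RNAi against EV and of successive days 4 libraries of a genotype, and interactions 12 or 18. CPM by library used TMM factors over all 30 libraries, and log2 CPM a prior count of 2. Alternatives were DESeq2 1.42.0, its size factors, library totals, no filter, other libraries in the fit, a replicate block, and each library left out. The fits were tested on simulated counts. The depth of 6045498 to 17748121 reads puts a floor of 3 reads at 4.96e-05% of the smallest library, which covers counting error only, and the 2 replicates per group limit precision more.

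The members, gene lists and comparisons were chosen with earlier results of these data known. Named genes were the 6 members, list genes that passed the test, and the genes with the highest Pearson's r, with the targeted genes as a check of labels; *rol-6*, *dpy-7* and *col-19* were named after their values were seen. The pairing of EV and *hda-1* RNAi libraries comes from the study's methods and the replicate numbers; deviations of same-numbered libraries from their group means correlated at 0.206 to 0.588 over genes in the 6 comparisons. No sequence was available here to count the positions shared between members.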

Additional observations from a re-analysis of the deposited data

Results flagged for a closer look

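The change of *vit-3* and *vit-4* from day 3 to day 12 on EV differed between genotypes by a test of the difference itself (edgeR, adjusted p-values under the threshold). The difference of log2 fold changes, mutant minus control, was 4.48 for *vit-3* and 4.23 for *vit-4* in *set-26(-)*, and 3.21 for *vit-3* and 3.20 for *vit-4* in *hcf-1(-)*. The control libraries are the same in both, and the *vit-3* and *vit-4* reads of a library may share sequence, so these 4 values are not independent of each other. With 2 libraries per group, no group was large enough to test for a single outlying library.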

How the results depend on the processing

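No member changed direction in a called comparison under any alternative. Of 366 counts of called members under the alternatives, 305 stayed within 1.5 times the count reported. Of 2208 values of single members, 2048 counted as unchanged. For a fold change this meant the same side of the threshold, and a change of direction counted only where either fit called the member. The 2208 include log2 ratios of the highest to the lowest group, which have no threshold and were judged by the spread between replicates. The counts of 6 of 6 lower in *hcf-1(-)* at days 1 and 3 and from day 3 to day 12 in each genotype stayed within 1.5 times under all alternatives. Using library totals instead of TMM factors moved the log2 fold changes of the members together. The median shift over members was 0.09 to 0.48 in the comparisons of mutants with controls, 0.10 to 0.59 between days and -0.05 to 0.04 on *hda-1* RNAi. It changed 1 count, to 1 on *hda-1* RNAi in controls at day 12. The *vit-1*, *vit-3* and *vit-4* log2 ratios of the highest to the lowest group became 7.13, 8.97 and 8.67 with library totals.

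Without the filter on low counts, members called numbered 3 (*set-26(-)*) and 4 (*hcf-1(-)*) at day 12 on EV, and 1 and 3 with *hda-1* RNAi. On *hda-1* RNAi against EV they numbered 1 in *hcf-1(-)* at day 3, and 2 in controls, 2 in *set-26(-)* and 3 in *hcf-1(-)* at day 12. From day 1 to day 3 they numbered 5 in *set-26(-)* and 6 in *hcf-1(-)*, with interactions of 1 and 6, and the *set-26(-)* interaction of days 3 and 12 became 4. DESeq2 called 1 in *set-26(-)* at day 12 on EV. On *hda-1* RNAi at day 12 it called 1 in controls, 1 in *set-26(-)* and 0 in *hcf-1(-)*, and 1 for the *hcf-1(-)* interaction of days 1 and 3. With other libraries in the fit, the counts were 3 for *set-26(-)* at day 1, 0 for *hcf-1(-)* at day 12 on EV, 1 for *hda-1* RNAi in controls at day 12 and 1 for day 3 against day 1 in controls. The cause of these moves was not tested.

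With the replicate block, the pairing of EV and *hda-1* RNAi gave 2 in *hcf-1(-)* at day 3, and 5 in controls, 4 in *set-26(-)* and 5 in *hcf-1(-)* at day 12, and day 3 against day 1 gave 6 in *set-26(-)* and 5 in *hcf-1(-)*. Mutants and controls share only a number. There the block gave 6 in *set-26(-)* at day 1, and 2 (*set-26(-)*) and 3 (*hcf-1(-)*) at day 12 on EV, beside 6.09% and 7.89% of genes, and 1 and 3 with *hda-1* RNAi, beside 13.9% and 14.3%, with correlations of same-numbered libraries from -0.093 to 0.412. Between days they ran from 0.023 to 0.471. The block moved no other count by over 1.5 times.

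Leaving out each library in turn gave 3 to 6 called in *set-26(-)* at day 1 and on *hda-1* RNAi at day 3, 0 to 1 in *set-26(-)* and 0 to 4 in *hcf-1(-)* at day 12 on EV. For *hda-1* RNAi against EV it gave 0 to 1 in controls and 0 to 3 in *hcf-1(-)* at day 3, and 0 to 1 in controls, 0 to 1 in *set-26(-)* and 1 to 3 in *hcf-1(-)* at day 12. Day 3 against day 1 gave 0 to 4 in controls and 3 to 5 in *hcf-1(-)*, and the *hcf-1(-)* interaction of days 3 and 12 gave 0 to 2. A group left with 1 library was assumed to vary like the others.

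The limits are the 2 libraries per group, reads shared between members that unique mapping dropped, and an unknown pairing of mutants with controls. At day 12 the replicates were a median of 2.41-fold apart. The *rol-6*, *dpy-7* and *col-19* levels of the *hcf-1(-)* libraries at day 1 cannot be told apart from genotype.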
